A study of Mus musculus with 3 samples.

Results

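The mitochondrial ribosomal protein genes are the genes that encode the proteins of the ribosome inside mitochondria. They were chosen by symbol, as every gene whose symbol starts with *Mrpl* or *Mrps* followed by a digit. This rule found 77 of the 23926 genes present in both deposited expression tables, 48 with an *Mrpl* symbol and 29 with an *Mrps* symbol. By the current assignment of the proteins, 50 of the 77 encode proteins of the large subunit, 26 encode proteins of the small subunit, and *Mrps36* encodes no ribosomal protein.

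RNA-seq was performed on E14 mouse ESCs, a mouse embryonic stem cell line cultured with LIF, with 1 library for each of 3 conditions. These were WT cells, *Oct4* DE (-/-) cells given 4-OH tamoxifen for 48 h (Tam), and *Oct4* DE (-/-) cells given both 4-OH tamoxifen and doxycycline for 48 h (DoxTam). In the floxed line, tamoxifen activates a Cre recombinase fused to an estrogen receptor domain, which removes the *Oct4* distal enhancer (DE), and doxycycline switches on a transgenic mouse *Oct4*. The labels give the tamoxifen-inducible and doxycycline-inducible constructs for all 3 libraries, WT included. The lines were expanded from clones, so each condition stands for a single clonal line at most. The sources used here do not say whether the WT cells were parental or floxed and untreated. Doxycycline was thus present in 1 of the 3 libraries, together with the *Oct4* transgene that it induces, so its own effect and that of the transgene cannot be told apart.

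Mitochondrial ribosomes translate the few proteins encoded by mitochondrial DNA, all of them parts of the respiratory chain and the ATP synthase. Their proteins are encoded in the nucleus, made in the cytoplasm and imported. Many descend from the ribosomal proteins of bacteria, and others have no bacterial counterpart and are particular to mitochondria. Doxycycline is a tetracycline antibiotic. Tetracyclines bind the small subunit of bacterial ribosomes, and because the mitochondrial ribosome is of bacterial type, doxycycline is known to block mitochondrial translation. The comparison of DoxTam with Tam therefore asks whether the transcripts of the ribosomal proteins themselves differed where doxycycline was added. RNA levels carry no information on the rate of mitochondrial translation.

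As a check of the labels, *Pou5f1*, which encodes OCT4, stood at 664, 529 and 458 FPKM in the libraries labelled WT, Tam and DoxTam. The library expected to carry transgenic *Oct4* held the lowest value, which goes against its label. Tam kept most of the WT level of *Pou5f1*, at 529 beside 664 FPKM. By qPCR, the authors report a nearly complete loss of *Oct4* expression in the deleted lines given tamoxifen alone. The level in Tam thus also goes against its label. The cause of either mismatch was not tested, and libraries are named here by label. FPKM is a count of fragments scaled by the length of the transcript and by the size of the library. All 8 markers of naive ESCs stood above 0 in each library, with a summed level of 1702, 1615 and 1473 FPKM in WT, Tam and DoxTam. Within these, *Tfcp2l1* stood at 90.7, 139 and 118 FPKM. *Dppa3* was low, at 1.09, 1.55 and 0.405 FPKM, and under 1 FPKM in DoxTam. The 6 trophectoderm markers summed to 23.3, 28.8 and 22.0 FPKM, within which *Cdx2*, a defining trophectoderm factor, stood at 0.639, 2.82 and 0.128 FPKM. The 4 primitive endoderm markers summed to 2.41 to 2.90 FPKM in each library and the 4 fibroblast markers to 2.90 to 5.15 FPKM. Most of the fibroblast sum was *Thy1*, at 4.52, 2.27 and 2.63 FPKM in WT, Tam and DoxTam. The part of these differences in the results below was not tested. Depth, read approximately from the smallest levels above 0, stood at 0.467 of the WT depth in Tam and 0.561 in DoxTam. As no condition has a second library, differences could not be set against replicates and no p-value is given. In bulk RNA, fewer cells that express a gene and less RNA per cell cannot be told apart.

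All 77 mitochondrial ribosomal protein genes were expressed in all 3 libraries, and none was listed at 0. Their levels ran from 2.61 to 126 FPKM in WT, from 2.77 to 86.2 FPKM in Tam and from 4.26 to 95.2 FPKM in DoxTam. The median member stood at 29.1, 27.9 and 28.7 FPKM in the same order. Summed over the 77 genes, the level was 2646 FPKM in WT, 2430 FPKM in Tam and 2497 FPKM in DoxTam. The large subunit and the small subunit had similar medians in WT, at 31.2 FPKM over 50 genes and 28.2 FPKM over 26 genes. For comparison, the median WT level of the genes measured in Tam and WT was 9.96 FPKM, and that of 81 measured cytoplasmic ribosomal protein genes was 541 FPKM. The order of the members was much the same in each library, with a Spearman rho of 0.970 between WT and Tam, 0.944 between WT and DoxTam and 0.977 between Tam and DoxTam over the 77 genes. Transcript length and GC content are shared by the libraries and enter each of these values.

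The most abundant member in WT was *Mrpl52*, which encodes a large-subunit protein particular to mitochondria, at 126 FPKM in WT, 86.2 FPKM in Tam and 93.7 FPKM in DoxTam. *Mrpl28*, whose protein has a bacterial L28 counterpart, followed at 99.1, 69.7 and 72.0 FPKM. *Mrpl34*, the counterpart of bacterial L34, stood at 82.0, 77.7 and 95.2 FPKM and was the most abundant member in DoxTam. Thus WT held the highest value for the first 2 of these genes and DoxTam for the third. *Mrpl2*, whose protein lies beside the peptidyl transferase centre, was next in WT at 75.5, 62.9 and 63.3 FPKM. *Mrpl40*, particular to mitochondria, stood at 72.7 FPKM in WT, 57.2 FPKM in Tam and 65.6 FPKM in DoxTam. At the other end, *Mrps33* was the lowest in WT at 2.61 FPKM, followed by *Mrpl23* at 4.06 FPKM and *Mrps36* at 4.66 FPKM. These 3 genes rest on few fragments, an estimated 38, 32 and 45 in WT.

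**Figure D1:**
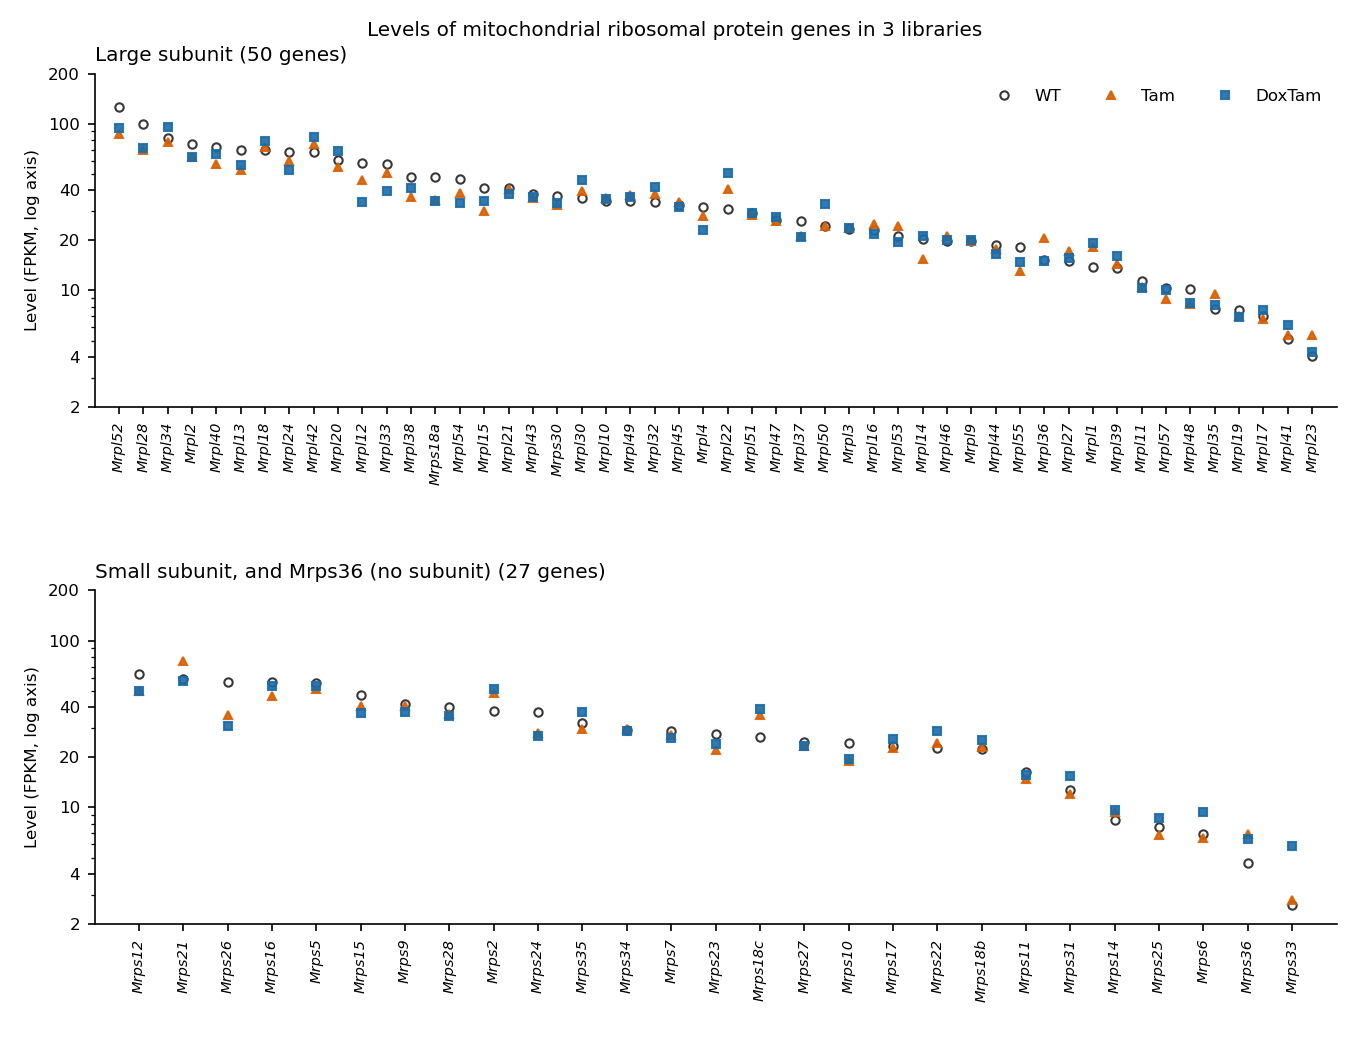
Level in FPKM (log axis) of each of the 77 genes in WT (open circles), Tam (triangles) and DoxTam (squares), 1 library each, ordered by WT level, with the 50 large-subunit genes above and the 26 small-subunit genes and *Mrps36* below. The 3 symbols of a gene lie close together over the whole range from 2.61 to 126 FPKM, and *Mrps33*, at the far right of the lower panel, has a single library apart from the other two.

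Folds were computed as the log2 ratio of FPKM + 1 between a pair of libraries, which understates the change of low genes. Higher and lower mean a fold of at least 1.5 (0.58 on the log2 scale), and a gene had to reach 1 FPKM in either library of the pair to be measured. All 77 members passed this filter in all 3 comparisons.

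With doxycycline added, the mitochondrial ribosomal protein genes stood close to their level without it. Between DoxTam and Tam, 1 of 77 members, *Mrps33*, was higher by 1.5-fold and 0 were lower. Among all 12628 genes measured in this pair, 2.09% were higher and 5.73% were lower by 1.5-fold. These genes had a lower median level in Tam than the members, 10.4 beside 27.9 FPKM. With a filter of 5 FPKM, 150 of 8901 genes were higher and 312 lower. The members' median fold was 0.03 and that of all genes was -0.02. Folds of the members ran from -0.43 to 0.87, with 46 above 0 and 31 below, beside 5930 above and 6698 below among all genes. When both libraries were rescaled to the same total FPKM, the medians were 0.24 for the members and 0.17 for all genes, so the members stood 0.06 above all genes, beside 0.05 without rescaling. Rescaled, 4 members were higher and 0 lower, where 761 of all genes were higher and 517 lower, beside 264 and 724 without rescaling. Tam and DoxTam stand in separate deposited tables, which hold identical WT values for all 77 members, so the pair was set across the tables.

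By subunit, the median fold of DoxTam over Tam was 0.02 for the 50 large-subunit genes, with 28 above 0, and 0.06 for the 26 small-subunit genes, with 18 above 0. By origin, it was 0.03 for the 46 members with a bacterial counterpart and 0.08 for the 30 particular to mitochondria. These medians were not tested against each other. *Mrps12*, the counterpart of the bacterial decoding protein S12, stood at 49.95 FPKM in Tam and 49.98 FPKM in DoxTam. *Mrps5*, whose bacterial counterpart S5 bears on decoding fidelity, stood at 51.3 FPKM in Tam and 53.3 FPKM in DoxTam. On the large subunit, *Mrpl3*, which lies near the peptidyl transferase centre, stood at 23.7 and 23.6 FPKM. *Mrpl11*, of the region where translation factors bind, stood at 10.5 and 10.4 FPKM. These 4 genes had folds between -0.02 and 0.05. *Mrpl12*, the stalk protein that recruits translation factors and the fifth gene named for its role, had the lowest fold of all 77 members, -0.43, at 45.8 FPKM in Tam and 33.7 FPKM in DoxTam.

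The counting error of each fold was approximated by turning FPKM into fragments with the estimated depth and transcript length, and taking an exact binomial 95% interval of the log2 FPKM ratio. These intervals cover counting error only. Of the 77 intervals for DoxTam over Tam, 62 held 0, 10 lay above 0 and 5 lay below 0, and their median width to each side was 0.27. The 5 below 0 were those of *Mrpl12*, *Mrpl33*, *Mrpl36*, *Mrpl4* and *Mrps21*, and the 10 above 0 were those of *Mrpl15*, *Mrpl20*, *Mrpl22*, *Mrpl34*, *Mrpl40*, *Mrpl50*, *Mrps25*, *Mrps31*, *Mrps33* and *Mrps35*. These genes are named by this interval, not by the size of the fold. Against WT, 52 intervals held 0 for Tam, with 7 above and 18 below, and 45 for DoxTam, with 14 above and 18 below. Intervals were computed for members only, so no share over all genes stands beside these counts. They were not recomputed after rescaling to the same total, which raised the all-gene median of DoxTam over Tam by 0.19.

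*Mrps33*, a small-subunit gene particular to mitochondria, was the least abundant member in WT and in Tam. It stood at 2.61 FPKM in WT, 2.77 FPKM in Tam and 5.88 FPKM in DoxTam, so DoxTam stood apart from the other two. These levels correspond to an estimated 38, 19 and 48 fragments, and the log2 ratio of DoxTam over Tam had a counting interval from 0.28 to 1.92. With a pseudocount of 5 FPKM its fold over Tam was 0.49 in place of 0.87, and its row in the Tam table was marked by the authors as not tested.

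The next highest folds of DoxTam over Tam belonged to *Mrps6*, *Mrpl14* and *Mrpl50*. *Mrps6*, the counterpart of bacterial S6, stood at 6.94 FPKM in WT, 6.58 FPKM in Tam and 9.42 FPKM in DoxTam, but its locus in the tables is shared with *Slc5a3*, so its value is uncertain. *Mrpl14* stood at 20.4, 15.4 and 21.1 FPKM, so WT and DoxTam were close and Tam was low. *Mrpl50*, particular to mitochondria, stood at 24.4, 24.5 and 32.9 FPKM, with DoxTam high and the other two nearly equal. Their folds of 0.46, 0.43 and 0.41 did not reach 1.5-fold.

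The lowest folds belonged to *Mrpl12*, *Mrpl36*, *Mrps21* and *Mrpl33*, at -0.43, -0.43, -0.38 and -0.35. *Mrpl36*, the counterpart of bacterial L36, stood at 15.2 FPKM in WT, 20.6 FPKM in Tam and 15.1 FPKM in DoxTam. *Mrps21* stood at 58.6, 75.1 and 57.3 FPKM in the same order. In both genes WT and DoxTam were close and Tam was high. *Mrpl33*, the counterpart of bacterial L33, stood at 57.0, 50.8 and 39.6 FPKM, a descending order over WT, Tam and DoxTam that *Mrpl12* shared.

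**Figure D2:**
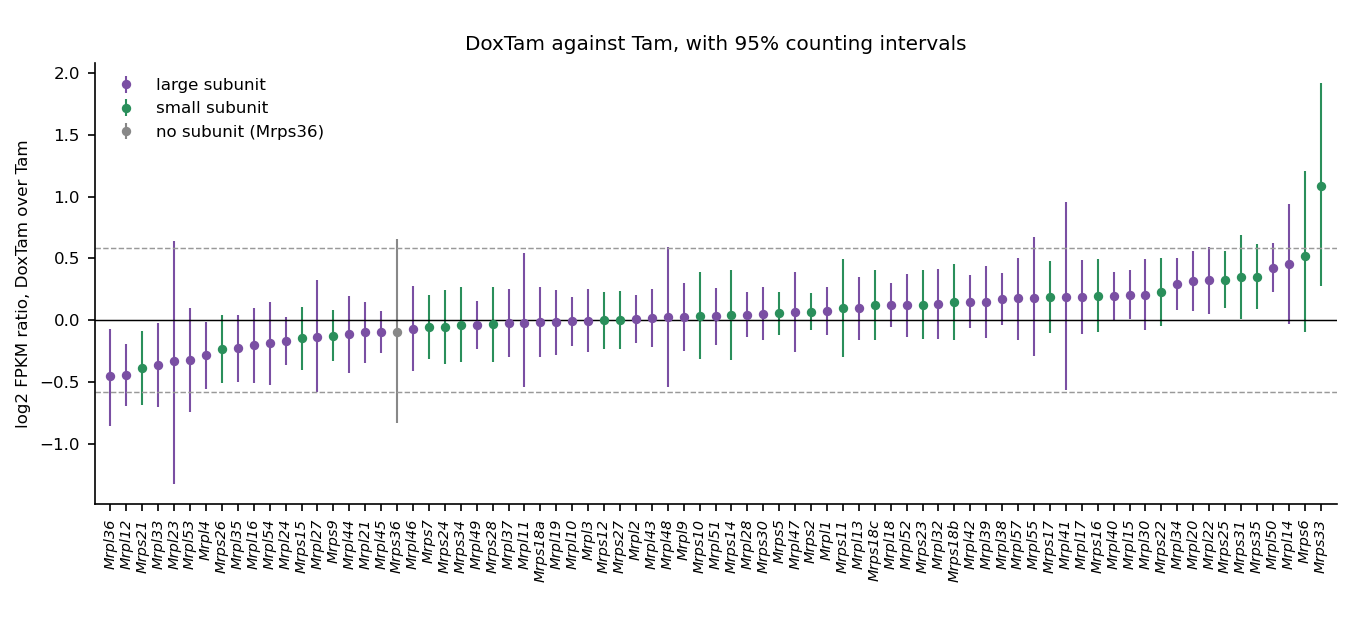
Log2 FPKM ratio of DoxTam over Tam for each of the 77 genes (1 library each), in order, coloured by subunit, with bars for the 95% counting interval and dashed lines at a ratio of 1.5-fold. Intervals of 62 genes hold 0, and *Mrps33* is the gene whose point lies beyond a dashed line.

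Both treated libraries were also compared with WT. The 2 comparisons share the WT library, so their values are given side by side and are not independent. Against WT, Tam held 0 of 77 members higher and 1, *Mrps26*, lower by 1.5-fold, where 6.99% of 12686 genes were higher and 3.59% were lower. DoxTam held 2 members higher, *Mrps33* and *Mrpl22*, and 2 lower, *Mrps26* and *Mrpl12*, where 4.12% of 12364 genes were higher and 5.78% were lower. The median fold of the members was -0.07 for Tam, beside 0.02 for all genes, and -0.04 for DoxTam, beside -0.0028 for all genes. Below 0 lay 47 members for Tam and 43 for DoxTam, beside 6007 of 12686 and 6216 of 12364 among all genes. The signs of the members' medians turned when the libraries were rescaled to the same total, small RNA genes included. Rescaled medians were 0.068 and 0.31 for the members and 0.15 and 0.32 for all genes. Rescaled, 1 member was higher and 0 lower in Tam, where 1370 of all genes were higher and 272 lower, and 13 were higher and 0 lower in DoxTam, where 2727 of all genes were higher and 222 lower. The large and small subunits had medians of -0.06 and -0.09 for Tam and of -0.04 each for DoxTam.

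*Mrps26* encodes a small-subunit protein particular to mitochondria, and lies at chr2:130389493-130391130 (mm9, plus strand). It stood at 56.8 FPKM in WT, 36.0 FPKM in Tam and 30.7 FPKM in DoxTam. WT was high and both treated libraries were low. Its fold against WT was -0.64 for Tam, with a counting interval of the ratio from -0.88 to -0.44, and -0.87 for DoxTam, with an interval from -1.11 to -0.67. It was the one member past 1.5-fold in both comparisons with WT, and it fell short of it after rescaling, at -0.50 and -0.52.

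*Mrpl12* encodes the counterpart of bacterial L7/L12, the stalk protein that recruits translation factors, and its protein also binds the mitochondrial RNA polymerase. The gene lies at chr11:120345983-120350068 (mm9, plus strand) and stood at 58.4 FPKM in WT, 45.8 FPKM in Tam and 33.7 FPKM in DoxTam. Its fold against WT was -0.78 for DoxTam, with an interval of the ratio from -1.01 to -0.59, and -0.35 for Tam. Once the trend of folds with GC content was removed, the fold for DoxTam was -0.57 and no longer reached 1.5-fold, nor did it after rescaling, at -0.42.

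*Mrpl22*, the counterpart of bacterial L22 that lines the exit tunnel of the nascent chain, lies at chr11:57985156-57993082 (mm9, plus strand). It stood at 30.6 FPKM in WT, 40.3 FPKM in Tam and 50.6 FPKM in DoxTam. The order was ascending over WT, Tam and DoxTam. Its fold against WT was 0.71 for DoxTam, with an interval of the ratio from 0.48 to 0.96, and 0.39 for Tam. *Mrps33* lies at chr6:39751807-39760935 (mm9, minus strand), and its fold for DoxTam against WT was 0.93, with an interval from 0.53 to 1.82. With a pseudocount of 5 FPKM the fold of *Mrps33* was 0.52 and fell short of 1.5-fold.

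Members that did not reach 1.5-fold filled the rest of the range. For Tam against WT the lowest after *Mrps26* were *Mrpl52* at -0.54, *Mrpl28* at -0.50 and *Mrpl15* at -0.45, and *Mrpl52* and *Mrpl28* are the 2 most abundant members in WT. *Mrpl15*, the counterpart of bacterial L15, stood at 41.3 FPKM in WT, 29.9 FPKM in Tam and 34.5 FPKM in DoxTam. The highest for Tam were *Mrps36* at 0.49, *Mrps18c* at 0.42, *Mrpl36* at 0.42 and *Mrpl22*. For DoxTam the lowest after *Mrps26* and *Mrpl12* were *Mrpl33* at -0.52 and *Mrpl28* at -0.46, and the highest after *Mrps33* and *Mrpl22* were *Mrps18c* at 0.54 and *Mrpl1*, of the L1 stalk of the ribosome, at 0.44. *Mrpl1* stood at 13.9 FPKM in WT, 18.3 FPKM in Tam and 19.2 FPKM in DoxTam.

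The 3 paralogs *Mrps18a*, *Mrps18b* and *Mrps18c* encode relatives of the bacterial protein S18. Current nomenclature keeps the product of *Mrps18c* alone as the S18 counterpart, counts the other two as particular to mitochondria, and places that of *Mrps18a* on the large subunit. *Mrps18a* stood at 47.7 FPKM in WT, 35.0 FPKM in Tam and 34.5 FPKM in DoxTam. *Mrps18b* stood at 22.3, 23.0 and 25.4 FPKM. *Mrps18c* stood at 26.4, 35.7 and 38.8 FPKM, so that *Mrps18a* was highest in WT and *Mrps18c* was lowest there. No fold of the 3 reached 1.5-fold in any comparison. *Mrps30*, also of the large subunit despite its symbol, stood at 36.8, 32.4 and 33.6 FPKM. *Mrps36*, whose product is part of a dehydrogenase complex of the citric acid cycle, stood at 4.66 FPKM in WT, 6.92 FPKM in Tam and 6.50 FPKM in DoxTam.

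Folds of the members moved with the GC content of their transcripts, as did those of all genes. Over the 77 members the Spearman rho of fold and GC content was -0.49 for Tam against WT, -0.55 for DoxTam against WT and -0.27 for DoxTam against Tam. Over all genes measured it was -0.39, -0.62 and -0.30 (11832, 11577 and 11794 genes). The rho with transcript length lay between 0.05 and 0.11 for the members. The 25 members of highest GC content, from 53.2% to 60.6%, had a median fold of -0.26 for Tam and -0.25 for DoxTam against WT. All genes in that GC range had medians of -0.11 and -0.22. The 26 members of lowest GC content, from 40.1% to 49.0%, had medians of 0.02 and 0.15, beside 0.13 and 0.19 for all genes in that range. *Mrps26* and *Mrpl12*, the lower members, had 60.1% and 58.1% GC, and *Mrps33* and *Mrpl22*, the higher members, had 43.2% and 49.7%. The GC trend was removed with the longest coding transcript of each gene, which had 49.2% GC for *Mrps26* and 56.1% for *Mrpl12*. After its removal *Mrps26* stayed past 1.5-fold in both comparisons with WT, as did *Mrps33* and *Mrpl22* for DoxTam. Whether *Mrps26* would stay past it at 60.1% GC was not tested. All genes of 60% to 62% GC had median folds of -0.20 for Tam and -0.37 for DoxTam against WT. Removal of GC and length trends together left *Mrpl22* just short, at 0.58.

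**Figure D3:**
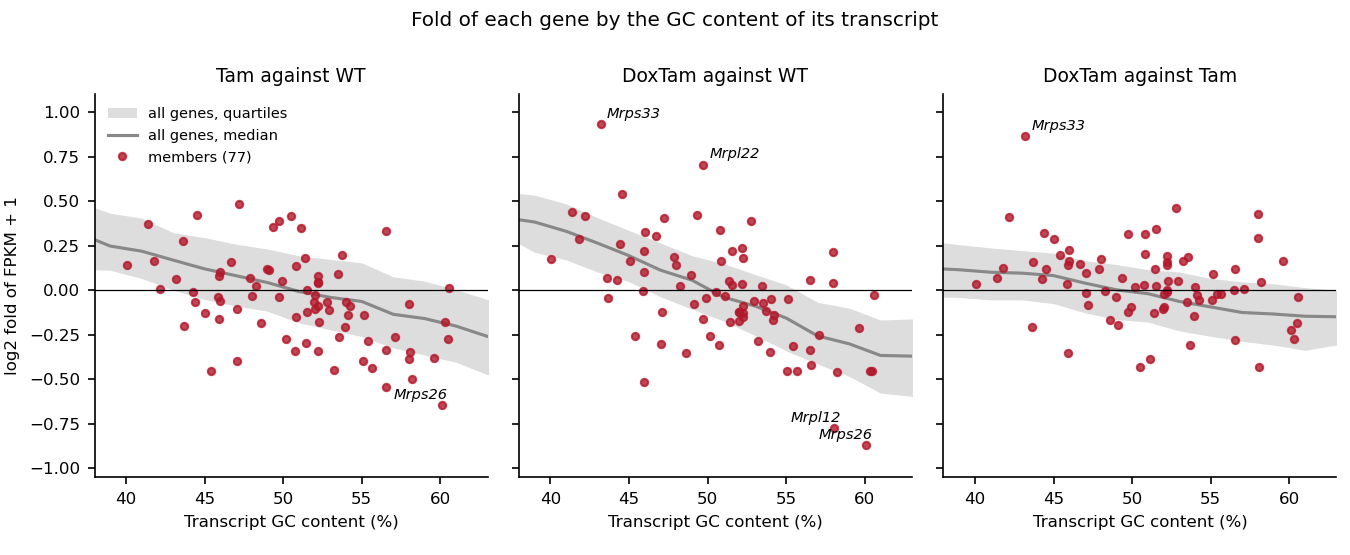
Log2 fold of FPKM + 1 (vertical) against transcript GC content in percent (horizontal) for Tam against WT, DoxTam against WT and DoxTam against Tam, with points for the 77 members, a line for the median of all genes in 2% bins of GC content and a band for their quartile range. The line descends with GC content in each panel, most steeply for DoxTam against WT (rho -0.62), and the members past 1.5-fold are named.

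The transcripts of the members were short, with a median length of 1043 bases beside 2669 bases for the genes measured in Tam and WT, and a median GC content of 51.4% beside 51.0%. The genes were spread over 17 chromosomes, with at most 10 on a single chromosome, chromosome 11. *Mrpl46* and *Mrps11* lay nearest each other, 42 bases apart on chromosome 7 and on opposite strands, and are named here for this position. *Mrpl46* stood at 19.8 FPKM in WT, 21.1 FPKM in Tam and 20.1 FPKM in DoxTam, and *Mrps11* at 16.3, 14.7 and 15.7 FPKM. A deposited locus was shared with another gene by 11 members, among them *Mrps6*, and their levels are uncertain to that extent.

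Promoter windows were read for the 4 members past 1.5-fold, to show the sequence from which each is transcribed. The windows come from RefSeq (GRCm38.p6), from 250 bases before to 50 after the gene's start, and their positions are given in mm9 where the same 300 bases were found. Windows were held for 68 of the 77 members, and not for *Mrpl4*, *Mrpl13*, *Mrpl15*, *Mrpl19*, *Mrpl38*, *Mrpl54*, *Mrps28*, *Mrps34* and *Mrps35*. Capitals mark matches, on either strand, to GCGCANGCG (the NRF1 motif), CCGGAAG (ETS), ATGGCGG (YY1) and GGGCGG (GC box), 4 motifs known from promoters of nuclear genes for mitochondrial proteins.
Mrps26, chr2:130389243-130389542, plus strand: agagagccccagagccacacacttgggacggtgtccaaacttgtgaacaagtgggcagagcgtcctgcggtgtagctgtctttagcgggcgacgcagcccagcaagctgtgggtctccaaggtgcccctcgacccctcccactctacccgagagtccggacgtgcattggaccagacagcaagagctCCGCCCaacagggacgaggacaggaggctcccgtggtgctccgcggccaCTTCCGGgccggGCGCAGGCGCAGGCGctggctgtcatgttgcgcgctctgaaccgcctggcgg
Mrpl12, chr11:120345701-120346000, plus strand: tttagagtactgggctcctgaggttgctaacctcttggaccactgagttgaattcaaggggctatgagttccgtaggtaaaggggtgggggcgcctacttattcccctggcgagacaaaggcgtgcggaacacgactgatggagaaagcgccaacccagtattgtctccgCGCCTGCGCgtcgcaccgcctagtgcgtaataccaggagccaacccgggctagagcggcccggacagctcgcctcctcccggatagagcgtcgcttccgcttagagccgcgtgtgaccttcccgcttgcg
Mrpl22, chr11:57984916-57985215, plus strand: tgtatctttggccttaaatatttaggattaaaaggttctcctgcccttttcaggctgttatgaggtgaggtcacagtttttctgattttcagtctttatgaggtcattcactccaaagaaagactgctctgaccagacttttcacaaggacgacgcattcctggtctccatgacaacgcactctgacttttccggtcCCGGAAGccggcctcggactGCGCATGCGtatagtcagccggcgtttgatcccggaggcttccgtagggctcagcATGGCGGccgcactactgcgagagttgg
Mrps33, chr6:39760886-39761185, minus strand: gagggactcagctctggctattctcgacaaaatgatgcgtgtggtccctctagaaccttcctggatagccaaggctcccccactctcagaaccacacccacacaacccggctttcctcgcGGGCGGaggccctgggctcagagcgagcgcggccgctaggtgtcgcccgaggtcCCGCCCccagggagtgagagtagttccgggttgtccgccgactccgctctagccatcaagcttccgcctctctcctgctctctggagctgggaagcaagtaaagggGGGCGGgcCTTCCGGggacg

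The windows of *Mrps26* and *Mrpl22*, a lower and a higher gene, each held an NRF1 match and an ETS match, and that of *Mrpl12* held an NRF1 match alone. The window of *Mrps33* held 3 GC boxes and an ETS match and no NRF1 match. In *Mrps26* the NRF1 letters occur 2 times in overlap. Over the 68 windows of members, 23.5% held the NRF1 motif, beside 6.47% of all 27025 windows and 14.2% of the 9498 windows of expressed genes, which reached 1 FPKM in any library. The ETS motif was held by 35.3% of the members, beside 9.12% and 18.6%, and the YY1 motif by 19.1%, beside 4.19% and 8.53%. The GC box was held by 34 of the 68 windows of members, 35.9% of all windows and 65.5% of those of expressed genes. Members with and without the NRF1 motif had median folds of 0.07 (16 genes) and 0.03 (52 genes) for DoxTam over Tam. For the ETS motif these were 0.07 (24 genes) and 0.03 (44 genes). For the YY1 motif the order was the other way, at 0.02 (13 genes) and 0.04 (55 genes). For the GC box the medians were 0.06 and 0.01 (34 genes each). A match is a description of letters in a window and says nothing of binding.

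Other genes of mitochondrial translation were read beside the members, from lists chosen with earlier results of these data known. The 6 ribosomal subunits under other symbols had 0 genes past 1.5-fold in any comparison, and their median fold of DoxTam over Tam was -0.02. Among them *Ptcd3*, of the small subunit, stood at 50.7 FPKM in WT, 49.8 FPKM in Tam and 68.9 FPKM in DoxTam, with the highest fold of DoxTam over Tam in the list, 0.46. The list of mitochondrial translation factors held 15 genes, of which some, such as *Letm1*, do not encode such a factor. Of the 15, *Tsfm*, the mitochondrial elongation factor Ts, was lower in Tam against WT. *Tsfm* stood at 45.3, 29.0 and 33.6 FPKM in WT, Tam and DoxTam (fold -0.63). It was the one gene of the list past 1.5-fold in any comparison. It fell short after rescaling, at -0.49, and with a pseudocount of 5 FPKM, at -0.57. For DoxTam over Tam 14 of the 15 lay above 0, with a median of 0.08, where 5930 of all 12628 genes lay above 0. The exception was *Letm1* at -0.33. The 14 folds above 0 ran up to 0.29, under 1.5-fold.

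Of 22 genes of ribosome assembly and rRNA processing, *Grsf1*, an RNA-binding protein of mitochondrial RNA granules, stood at 34.0 FPKM in WT, 71.2 FPKM in Tam and 38.3 FPKM in DoxTam. Tam was high, with a fold of 1.05 against WT and of -0.88 for DoxTam over Tam. *Fastkd2*, needed for the mitochondrial large ribosomal RNA, stood at 10.2, 11.3 and 17.9 FPKM, with folds for DoxTam of 0.75 against WT and 0.61 against Tam. The other 20 did not reach 1.5-fold. Of 17 mitochondrial aminoacyl-tRNA synthetases, *Lars2* stood at 2461, 2131 and 1339 FPKM, with folds for DoxTam of -0.88 against WT and -0.67 against Tam. That level is far above the list's median of 10.2 FPKM in WT. It is uncertain, and the small RNA gene *Mir6236* had its order, at 456353, 337865 and 225659 FPKM, and its part in the level of *Lars2* was not tested. *Vars2* was lower in DoxTam against WT, at 9.76, 7.80 and 6.01 FPKM (fold -0.62).

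Of 14 measured regulators of mitochondrial gene expression, 0 were past 1.5-fold between DoxTam and Tam. Against WT, *Esrra*, a nuclear receptor that acts on mitochondrial genes, was lower in both treated libraries, at 10.3, 5.42 and 5.34 FPKM in WT, Tam and DoxTam. Without the GC trend its folds were -0.57 and -0.47 and fell short of 1.5-fold. *Myc* was lower in Tam at 37.1, 21.1 and 27.5 FPKM, and *Pprc1*, a coactivator of the PGC-1 family, was lower in DoxTam at 64.0, 42.7 and 39.7 FPKM. Of 19 measured genes of the mitochondrial stress response, 0 were past 1.5-fold between DoxTam and Tam and the median was 0.10. Against WT 4 of the 19 (21.1%) were lower in Tam (*Phgdh*, *Mthfd2*, *Trib3* and *Psat1*), beside 3.59% of all genes, and 3 (15.8%) were lower in DoxTam (*Gdf15*, *Phgdh* and *Trib3*), beside 5.78%, while 0 were higher in either. After rescaling *Trib3* (-0.54) and *Psat1* (-0.51) fell short of 1.5-fold in Tam, as did all 3 genes in DoxTam. The 19 genes had a median GC content of 55.3%, beside 51.0% for all genes. *Phgdh*, *Trib3* and *Gdf15* had 57.4%, 58.3% and 62.5%, and *Mthfd2* and *Psat1* had 49.7% and 49.2%. All genes of 56% to 58% GC had median folds of -0.13 for Tam and -0.26 for DoxTam against WT. The part of GC content in these counts was not tested. *Phgdh*, the first enzyme of serine synthesis, stood at 37.5, 18.5 and 23.5 FPKM. *Mthfd2*, a mitochondrial enzyme of folate metabolism, stood at 45.6, 27.1 and 37.7 FPKM. *Atf4*, the transcription factor of this response, stood at 144, 151 and 171 FPKM and did not reach 1.5-fold.

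The members were last set beside the other ribosome of the cell and the complexes that mitochondrial translation serves. For DoxTam over Tam the median fold was -0.0030 for 82 cytoplasmic ribosomal protein genes, with 1 higher and 4 lower by 1.5-fold. The 1 higher was *Rpl26*, at 0.0046, 0.0081 and 17.8 FPKM in WT, Tam and DoxTam, so its value is uncertain. The 4 lower were *Rps16*, *Rpl10l*, *Rpl39l* and *Rpl3l*. The median was -0.04 for 79 nuclear-encoded respiratory chain genes, with 1 higher and 4 lower. As shares, 1.22% of the cytoplasmic list were higher and 4.88% lower, and 1.27% and 5.06% of the respiratory chain list. Among all genes 2.09% were higher and 5.73% lower, so neither list stood far from that share. For Tam against WT the medians of the cytoplasmic and respiratory chain lists were 0.08 and 0.03, beside -0.07 for the members. The medians of these lists were not tested against that of the members. Of 15 listed genes encoded by mitochondrial DNA, 0 were found by symbol among the 23926 genes used here, so none could be analysed.

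**Figure D4:**
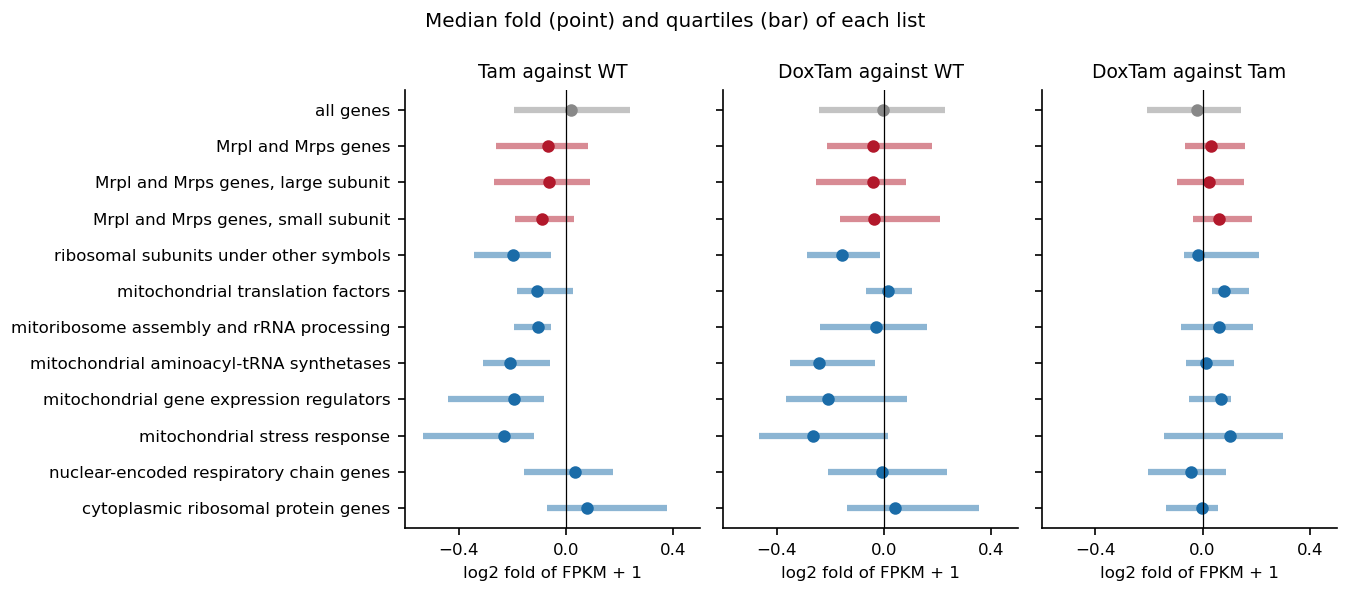
Median log2 fold of FPKM + 1 (points) and quartile range of folds (bars) for all genes (grey), for the *Mrpl* and *Mrps* genes together and by subunit (red), and for the other lists (blue), in each of the 3 comparisons. The members' medians lie between -0.09 and 0.06 in all 3 panels.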

How the data were processed

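Stranded RNA-seq libraries of E14 mouse ESCs, 1 per condition (WT, Tam, DoxTam), were analysed by their labels. The authors deposited 2 tables of gene levels in FPKM, each with 1 treated library and WT, made with TopHat and Bowtie (versions not given in the sources used here) and Cufflinks 2.0.0 on mm9, by the submitters' processing notes. The tables also hold the authors' log2 ratio, test statistic, p-value, q-value and significance of each comparison, which were not used; their status of each row was used in 1 alternative. No column (0) was left without a library. WT levels differed by over 1% between the tables for 2 genes, and 50 names stand in 1 table only.

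The members and gene lists were chosen with earlier results of these data known. Folds are log2((FPKM + 1)/(FPKM + 1)), for genes that reached 1 FPKM in either library of the pair, called at 1.5-fold, with no test. Lists are given by counts and medians beside all genes. Named members are the 5 highest and 3 lowest in WT, the 4 highest and 4 lowest folds of each comparison, every member past 1.5-fold, the *Mrps18* paralogs, *Mrps30*, *Mrps36*, and *Mrpl12*, *Mrps12*, *Mrps5*, *Mrpl3* and *Mrpl11* for their roles. Members named for a counting interval or a position, and the genes *Ptcd3*, *Letm1*, *Psat1* and *Atf4*, were named after their values were seen. So were the trophectoderm markers *Krt8*, *Krt18* and *Elf5*. For other lists, members past 1.5-fold are named, at most 3 per direction and comparison. The cytoplasmic ribosomal and respiratory chain genes, taken by symbol, were described by counts and medians. Cytoplasmic ribosomal genes past 1.5-fold for DoxTam over Tam were named after their values were seen.

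Depth was estimated from the FPKM of a single fragment over genes with 1 coding transcript of over 1500 bases, which is approximate. Length and GC content are those of the GENCODE M1 coding transcript (mm9) closest to the deposited locus, without exon bases outside it, found for all 77 members. Removal of GC and length trends used the longest GENCODE M1 coding transcript of each gene instead, which differs for some members. Promoter windows came from RefSeq. Alternatives were a pseudocount of 0.1 or 5 FPKM, a filter of 5 FPKM or none, centring all folds on their median, rescaling to the same total with and without small RNA genes, removal of GC, length or both trends (lowess, span 0.2), status OK, and 2-fold. Scripts ran in Python 3.11.15 with pandas 2.3.3, scipy 1.17.1 and statsmodels 0.14.6, and were checked on simulated data.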

Additional observations from a re-analysis of the deposited data

How the results depend on the processing

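The members' median fold and their counts were recomputed under 12 alternatives. Rescaling each library to the same total raised the all-gene median by 0.13 (Tam against WT), 0.32 (DoxTam against WT) and 0.19 (DoxTam against Tam). Under it the members' medians were 0.068, 0.31 and 0.24, members higher were 1, 13 and 4, and members lower against WT were 0 for Tam and 0 for DoxTam. Relative to all genes the members then stood at -0.08, -0.01 and 0.06, beside -0.09, -0.04 and 0.05 without rescaling. With the 1200 small RNA genes left out of the total the shift was at most 0.012, so the sign of the members' median fold against WT depends on whether these genes count. For DoxTam against Tam it was above 0 in either case. The split of all genes also moved, from 510 higher and 715 lower to 2727 and 222 for DoxTam against WT, from 887 and 455 to 1370 and 272 for Tam against WT, and from 264 and 724 to 761 and 517 for DoxTam against Tam. After removal of the length trend 2 members were lower in Tam against WT, *Mrpl52* joining at -0.64, and 2 also after removal of GC and length trends. GC and length removal left 1 member higher in DoxTam against WT, with *Mrpl22* at 0.58. A pseudocount of 5 FPKM left 1 member higher in DoxTam against WT and 0 in DoxTam against Tam, as *Mrps33* stood at 0.52 and 0.49, and so did keeping rows with status OK (1 and 0), which leaves *Mrps33* out. At 2-fold 0 members were lower in Tam against WT, 0 higher and 0 lower in DoxTam against WT and 0 higher in DoxTam against Tam. *Mrps26* stood at -0.50 and -0.52 against WT after rescaling. Among genes past 1.5-fold in the lists of mitochondrial translation, its regulators and the stress response, *Grsf1* in both its comparisons and *Myc*, *Phgdh* and *Mthfd2* in Tam against WT stayed past it under every alternative but 2-fold, at which single genes were not called. Each of the others fell short under at least 1 alternative, which for DoxTam against WT holds for all 8: *Fastkd2* (0.47 without the GC trend), and after rescaling *Lars2* (-0.52), *Vars2* (-0.30), *Esrra* (-0.53), *Pprc1* (-0.32), *Gdf15* (-0.49), *Phgdh* (-0.31) and *Trib3* (-0.27). In DoxTam against Tam *Lars2* (-0.45 rescaled) and *Fastkd2* (0.49 without the GC trend) fell short. No fold changed sign past the threshold. Leaving out a library was not possible with 1 per condition. No paired analysis was possible because each condition has 1 library. At these depths a member such as *Mrps33* rests on few fragments.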
